A study of Mus musculus with 30 samples.

Results

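The genes described here are the 9968 sex-neutral genes, of 17990 genes in the deposited count table (55.4%), in the livers of adult male mouse offspring after maternal exposure to BPSIP. A gene was counted as neutral when its mean level over the 24 exposed libraries was at least 1 CPM (a read count scaled for library size) and when its mean in the 12 exposed female libraries was 0.67 to 1.5 times its mean in the 12 exposed male libraries. Of the other genes, 6285 had a mean under 1 CPM, 496 had a ratio below the range and 1241 had a ratio above it. All 9968 neutral genes passed the filter on low counts and were tested. At the edges of the rule, LOC118567893 lay inside with a ratio of 0.6702 and Tprkb outside with 0.6693, Patz1 lay inside at 1.4999 and Rhbg outside at 1.5002, and Map2 (1.004 CPM) and Csgalnact1 (0.9996 CPM) lay on either side of the minimum level. The members were thus chosen by their measured level and by the ratio between sexes in the exposed libraries, so that ratio is a description and is not tested; the 3 male and 3 female BPSIP libraries entered it as 3 of 12 in each sex.

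BPSIP is a bisphenol S (BPS) in which an isopropyl ether stands in place of a hydroxyl group, and it is used as a colour developer in thermal paper. ICR mice, an outbred stock, drank water with 10 ng/mL of BPSIP, 2,4-BPS (an isomer of BPS), BPS or estradiol (E2), each in 0.001% ethanol, and the controls drank 0.001% ethanol alone. Each of the 5 groups had 8 dams, which were exposed from the start of pregnancy to weaning, for about 40 days, at an intended 5 µg per kg body weight per day. Livers of male (M) and female (F) offspring were taken at 10 weeks of age, 3 per sex and group from litters of different dams, and by the labels RNA was extracted liver by liver. The offspring had no treatment of their own recorded after weaning. The main comparison is 3 male BPSIP livers against the 3 libraries labelled male control. The 6 libraries held 29711711 to 32745319 counts each.

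The libraries labelled male control went against their label in part. The summed level of 4 Y-linked genes was 84.7 to 95.3 CPM in them, 131 to 169 CPM in the 12 exposed male libraries (152 to 156 CPM in the BPSIP males) and at most 0.543 CPM in female libraries. A set of 13 liver genes specific to females stood at a median of 47.4% of the level of the female controls in the libraries labelled male control, and at 0.135% in the BPSIP males. From the Y-linked genes, the male share of the RNA in these libraries was 58.0% and the female share 42.0%. Genes with a strong sex bias therefore cannot be compared between these groups, and the neutral rule limits that bias. For a neutral gene at the edge of the ratio range, a mixture of this kind alone moves the difference between BPSIP and control by -0.27 or 0.21 on the log2 scale, if the ratio of the exposed livers also holds in the livers mixed. A mixed comparison, in which each BPSIP library was mixed with a female control library at the female share before the test against the libraries labelled male control, makes no such assumption, and it moved 614 of the 9968 neutral genes (6.16%) by more than 0.27; it is given with each printed difference from those libraries whose call it ended, gained or turned, or which was called and moved by over 1.5 times. In the mixed comparison both sides hold female RNA, so a true difference between males is made smaller by design. A smaller value or a lost call there does not show that the mixture made the difference. Beside the comparison with the libraries labelled male control, the same genes were compared with the mean of the other 3 exposed male groups (2,4-BPS, BPS and E2, 9 libraries), which holds no control library but shares the 3 BPSIP libraries. Of 6923 neutral genes over 10 CPM in the female controls, 17 stood in the libraries labelled male control below the level that the female share of the female control mean alone would give, Cyp4a14 among them, so the female control livers are no exact model of the RNA mixed in.

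As background, the liver oxidises fatty acids in mitochondria and peroxisomes and in the endoplasmic reticulum by CYP4A enzymes. Many of these genes are targets of PPARα (Ppara), a nuclear receptor that fatty acids activate and that works with a retinoid X receptor on direct repeats in promoters. Metallothioneins bind zinc and copper and are induced by metals through the factor MTF1, and also by glucocorticoids and inflammation. Acute phase proteins are made by hepatocytes under interleukin-6 and related cytokines. Clock genes and their output genes cycle over the day, so their level depends on the hour of collection, which is not given in the sources used here.

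Against the libraries labelled male control, 2016 of the 9968 neutral genes were higher in BPSIP males (20.2%) and 1521 lower (15.3%) at an adjusted p under 0.05 (edgeR's quasi-likelihood test, adjusted over all 13474 genes tested). The background over all genes tested was 17.4% higher and 17.4% lower. A change of at least 2-fold was called for 93 neutral genes that were higher (0.933%, background 1.71%) and 120 that were lower (1.2%, background 4.32%). The median difference of the neutral genes was 0.03 on the log2 scale, the median size of a difference was 0.19, and 95% of them were under 0.76, with a range from -3.77 to 5.08. Against the other exposed males, 1767 neutral genes were higher (17.7%, background 15.9%) and 1633 lower (16.4%, background 15.4%). These shares over the neutral genes are the background for each list count below. A list whose counts lie near them differs little from the neutral genes as a whole. Beside a log2 difference, a value after ± is a standard error (SE) worked back from the test. It is the size of the difference divided by the square root of its quasi-likelihood F statistic. Beside a level in CPM, a value after ± is the SD of 3 libraries. At an adjusted p under 0.05 the shares called were within 3 percentage points of the background, while changes of at least 2-fold were rarer among neutral genes than among all genes tested. The neutral rule takes out sex-biased genes, which female RNA in the libraries labelled male control moves most. The background also holds the neutral genes, so this contrast is partly set by the choice of genes. The values of the 3 libraries did not overlap between BPSIP and control for 24.4% of neutral genes on the higher side (background 21.2%) and 20.3% on the lower side (background 23%). Of the called differences, 1310 higher and 1083 lower were larger than 0.27, the shift at the edge of the ratio range under the assumption above.

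**Figure D1:**
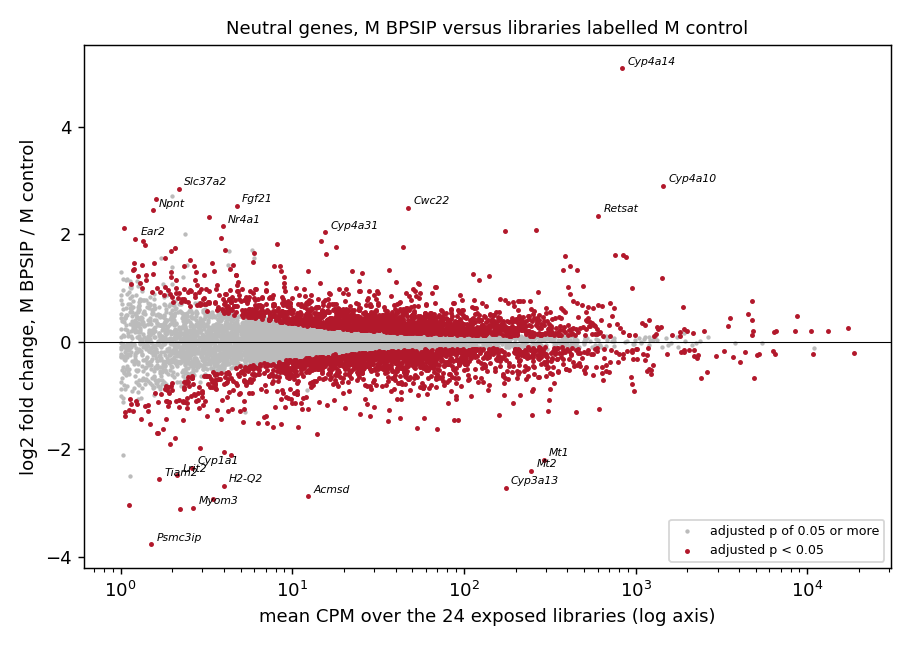
Each point is 1 of the 9968 neutral genes, placed by its mean CPM over the 24 exposed libraries (log axis) and its log2 fold change between BPSIP males and the libraries labelled male control; red points had an adjusted p under 0.05 and the 20 labelled genes are the largest changes that were also called in the same direction against the other exposed males. Most genes lie within 0.76 of 0, Cyp4a14 stands highest at 5.08, and Mt1, Mt2, Cyp3a13 and Acmsd are the labelled abundant genes below -2.

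Of the 35 lists described here, fatty acid oxidation and PPARα targets had the largest share of higher genes against the other exposed males. The list holds 45 genes, of which 37 were neutral. Of these 37, 31 rose and 3 fell against the libraries labelled male control, with a median of 0.51 on the log2 scale, against 20.2% higher and a median of 0.03 over the neutral genes. Against the other exposed males 34 rose and none fell (median 0.35; the remaining 3, Ppargc1a, Plin2 and Creb3l3, were at 0.01 to 0.06), against a background of 17.7% higher and 16.4% lower among neutral genes. In females, BPSIP against female control gave none higher and 34 lower (Cyp4a10, at 0.18, was called higher with DESeq2), with a median of -0.61, beside 22.7% of all neutral genes lower (background 19.2%). The other 8 members, which were not neutral and are not used here, are Acot1, Acot2, Acot3, Acot4, Cyp4a32, Vnn1, Pdk4 and Ucp2. A rise against the libraries labelled male control was not limited to BPSIP: 18 members rose and 8 fell in 2,4-BPS males, 25 and 8 in BPS males, and 18 and 6 in E2 males, and these comparisons share the control libraries.

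The promoters of 2 members are shown because each holds a motif of a factor that acts on this pathway. They are the 250 bases before the start site in RefSeq on GRCm38.p6, given 5′ to 3′ on the gene's strand. The capitals in Fabp1 (chr6:71199629-71199878, plus strand), which codes for the liver fatty acid binding protein, mark a match, on the opposite strand, to the peroxisome proliferator direct repeat, which PPARα binds with a retinoid X receptor. The capitals in Fgf21 (chr7:45615491-45615740, minus strand), which codes for a hormone of the fasted liver, mark ATTGCATCA, an element of the amino acid response that ATF4 binds.

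Fabp1: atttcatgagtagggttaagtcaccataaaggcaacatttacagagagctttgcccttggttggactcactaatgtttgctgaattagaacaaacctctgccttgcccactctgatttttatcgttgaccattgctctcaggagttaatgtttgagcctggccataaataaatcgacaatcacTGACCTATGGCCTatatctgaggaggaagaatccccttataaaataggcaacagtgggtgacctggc

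Fgf21: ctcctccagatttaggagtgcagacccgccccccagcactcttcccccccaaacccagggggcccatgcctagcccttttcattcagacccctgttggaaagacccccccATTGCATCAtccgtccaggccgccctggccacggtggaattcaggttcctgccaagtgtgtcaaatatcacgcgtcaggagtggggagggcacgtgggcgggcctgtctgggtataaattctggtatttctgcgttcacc

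The direct repeat, searched on both strands with 1 free base in its first copy, was found in 27 of 32851 promoter windows of this length (0.0822%), and in 1 of the 27 neutral list members with a window, Fabp1, where it begins 67 bases before the start. The ATTGCATCA element, also searched on both strands, was in 55 of the 32851 windows (0.167%), and in Fgf21 it begins 140 bases before the start. A match is a description of these letters and shows no binding. No window was matched for 10 members, Cyp4a14, Cyp4a10 and Cyp4a31 among them.

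Among the CYP4A enzymes, which hydroxylate the end of the fatty acid chain, Cyp4a14 changed most. Its level was 1416, 1394 and 1309.6 CPM in the 3 BPSIP males and 39.4, 44.2 and 38.5 CPM in the libraries labelled male control, a rise of 5.08 ± 0.06 (SE) on the log2 scale, or 33.9-fold (adjusted p = 2.52e-46). The groups did not overlap, and the other exposed males stood at means of 211 in 2,4-BPS, 1291 in BPS and 712 in E2, so BPS males were close to BPSIP males and 2,4-BPS males far below. Against those groups together the rise was 1.25 ± 0.04 (adjusted p = 3.70e-30). In females Cyp4a14 fell from 229 ± 1.58 to 93.5 ± 8.39 CPM, a difference of -1.30 ± 0.06. Cyp4a10 was at 1903, 1852 and 1741 CPM in BPSIP males against 257, 228 and 255 CPM, a rise of 2.90 ± 0.11 (adjusted p = 1.68e-09), and of 0.81 ± 0.08 against the other exposed males. Cyp4a31, at 29.2, 30.8 and 32.7 against 7.67, 8.11 and 6.99 CPM, rose by 2.03 ± 0.11. The 3 genes are close copies, so reads may be split between them, and their separate values are uncertain.

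Peroxisomal enzymes followed. Ehhadh, the bifunctional enzyme of peroxisomal β-oxidation, was at 1167, 1105 and 1038 CPM in BPSIP males and 371, 364 and 356 CPM in the libraries labelled male control. The difference was 1.61 ± 0.04 (adjusted p = 1.21e-42), and 1.07 ± 0.03 against the other exposed males, whose means were 492 in 2,4-BPS, 717 in BPS and 416 in E2. All 3 BPSIP livers lay above every other male library. Acaa1b, a peroxisomal thiolase, was at 1655, 1567 and 1446 against 511, 502 and 517 CPM and rose by 1.62 ± 0.04 and, against the other exposed males, by 1.12 ± 0.03; its close copy Acaa1a makes the split uncertain.

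In mitochondria the changes were smaller. Cpt1a, which admits fatty acids into mitochondria, rose by 0.40 ± 0.05 (means 854 ± 21.9 and 649.7 ± 28.8 CPM, SD, n = 3) and by 0.61 ± 0.04 against the other exposed males. Hadha, a subunit of the trifunctional protein, rose by 0.65 ± 0.04 and 0.47 ± 0.03, Acadvl by 0.40 ± 0.04 and 0.31 ± 0.03, Acadm by 0.43 ± 0.04 and 0.15 ± 0.03, and Cpt2 by 0.19 ± 0.05 and 0.11 ± 0.04. The first Cpt2 call was lost in the mixed comparison, at 0.10 (adjusted p = 0.0811), and the second without the first or the third BPSIP library (adjusted p = 0.165 and 0.056). Fabp1, whose promoter is printed above, was at 6004, 5694 and 5424 CPM against 4003, 3947 and 4178 CPM, a rise of 0.51 ± 0.04 (adjusted p = 2.05e-19) and 0.48 ± 0.03. In females Fabp1 fell from 6241 ± 64 to 3486 ± 107 CPM. Cpt1a, Hadha, Acadvl, Acadm, Cpt2, Fabp1 and the regulators below were chosen for mention after their values were seen.

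The regulators of the pathway did not rise with it against the libraries labelled male control. Ppara was at 370.3, 391 and 377 CPM in BPSIP males and 459, 430.5 and 432 CPM in those libraries, a difference of -0.21 ± 0.05 on the log2 scale (adjusted p = 1.45e-04). Against the other exposed males, at means of 267 in 2,4-BPS, 232 in BPS and 297 in E2, it rose by 0.53 ± 0.04 (adjusted p = 2.90e-20). Ppargc1a, a coactivator of PPARα, fell against the libraries labelled male control (-0.55 ± 0.16, adjusted p = 0.00583). Without the third control library this call was lost, at -0.38 (adjusted p = 0.103), and it was also lost in the mixed comparison, at -0.20 (adjusted p = 0.394). Against the other exposed males Ppargc1a was at 0.01 ± 0.14 (adjusted p = 0.978). Angptl4, a PPARα target that inhibits lipoprotein lipase, fell by 0.25 against the libraries labelled male control (adjusted p = 4.49e-06) and rose by 0.30 ± 0.04 against the other exposed males; in the mixed comparison it was at -0.50. Creb3l3, a fasting factor of the endoplasmic reticulum, was at 0.01 ± 0.04 (adjusted p = 0.824) and 0.06 ± 0.03, and was called lower in the mixed comparison, at -0.10 (adjusted p = 0.0369).

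Fgf21 was at 11.1, 7.68 and 7.84 CPM in BPSIP males and 1.72, 1.23 and 1.71 CPM in the libraries labelled male control. The groups did not overlap, and the rise was 2.52 ± 0.23, or 5.75-fold (adjusted p = 4.54e-15). The other exposed males stood at means of 1.3 in 2,4-BPS, 5.2 in BPS and 4.85 in E2, and against them the rise was 1.47 ± 0.16 (adjusted p = 5.32e-12). In females it fell from 4.6 ± 0.0891 to 0.678 ± 0.0822 CPM. Of the 20 neutral genes of the ATF4 amino acid response list, to which Fgf21 also belongs, 9 rose and 5 fell against the libraries labelled male control (median 0.25), and 7 rose and 6 fell against the other exposed males (median 0.06). Over all neutral genes 20.2% rose and 15.3% fell in the first comparison, and 17.7% and 16.4% in the second. Atf5, a factor induced under ATF4, was at 472, 462 and 426 against 154, 151 and 151 CPM and rose by 1.58 ± 0.04, and by 0.30 ± 0.03 against the other exposed males. Atf4 itself rose by 0.59 ± 0.05 (0.32 in the mixed comparison) and 0.15 ± 0.04. Ddit4, an inhibitor of mTORC1 signalling, fell by 0.97 against the libraries labelled male control. It rose by 0.29 ± 0.10 against the other exposed males, a call lost without the third BPSIP library (0.27, adjusted p = 0.0669). Ddit4 was at 11.6, 11.5 and 11.8 CPM in BPSIP males. Only 2,4-BPS males were far lower (5.70, 5.78 and 5.52 CPM), beside 14.1, 12.5 and 13.6 CPM in BPS males and 12.7, 12.2 and 9.83 CPM in E2 males.

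**Figure D2:**
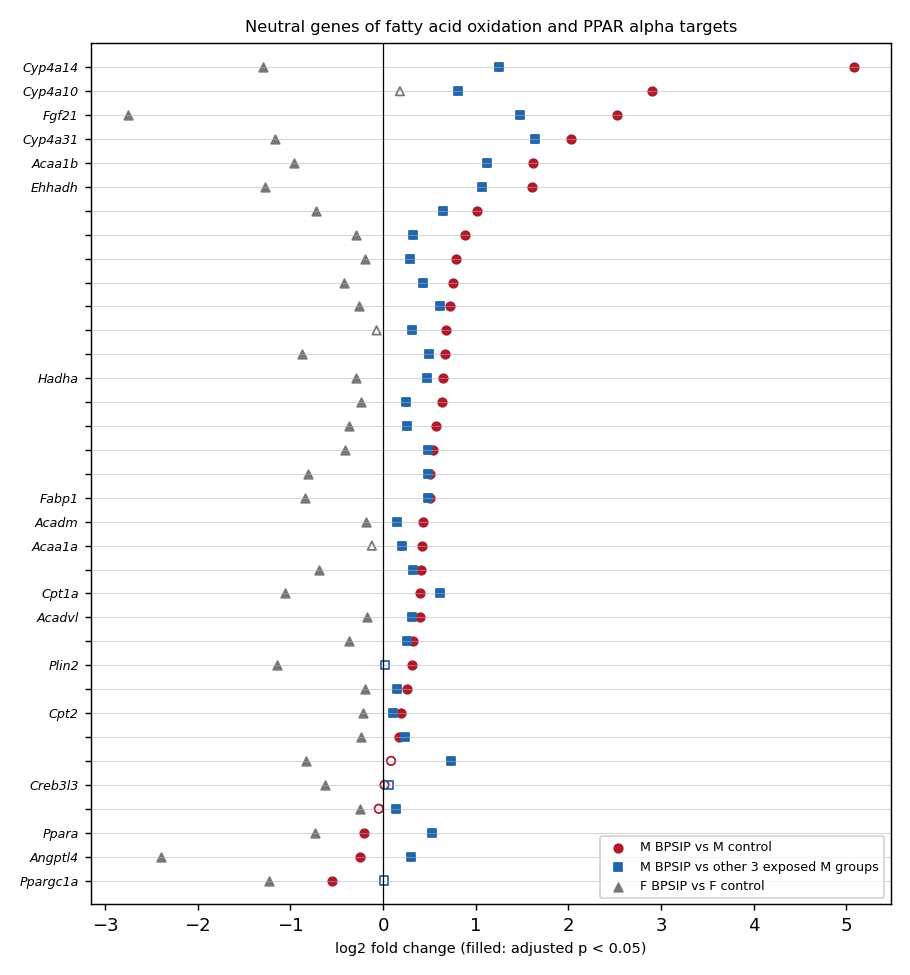
Log2 fold changes (horizontal axis) of 35 of the 37 neutral genes of fatty acid oxidation and PPARα targets in BPSIP males against the libraries labelled male control (red), in BPSIP males against the other 3 exposed male groups (blue) and in BPSIP females against female controls (grey); filled marks had an adjusted p under 0.05. Names are given for genes described in the text. Of the red marks 29 lie above 0 and are filled, of the blue marks 32, and 32 grey marks are filled below 0.

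Retsat, which saturates retinol and lies outside the list, was at 1231, 1222 and 1145 CPM in BPSIP males and 249, 228 and 237 CPM in the libraries labelled male control. It rose by 2.34 ± 0.05, or 5.06-fold (adjusted p = 3.13e-45), and by 1.26 ± 0.03 against the other exposed males, whose means were 323 in 2,4-BPS, 738 in BPS and 539 in E2. The BPSIP livers lay above all other male livers, and in females Retsat fell from 477 ± 8.97 to 286 ± 24.3 CPM. The other genes among the 10 largest rises called in both comparisons were low in level, apart from Cwc22, a splicing factor with many copies in mice, at 76.9, 69.3 and 85.6 against 14.5, 12.9 and 14.3 CPM (a rise of 2.49 ± 0.08; the copies make the count uncertain). Slc37a2, a sugar phosphate exchanger, rose by 2.85 ± 0.38 and Npnt, a matrix protein, by 2.45 ± 0.46, from under 1 CPM to means of 2.93 ± 0.465 and 2.65 ± 0.611 CPM. Their rise against the other exposed males (0.90 ± 0.26 and 1.14 ± 0.32) was lost without the first BPSIP library, at adjusted p = 0.0563 and 0.0534. In E2 males Npnt was at 0.793, 3.49 and 3.37 CPM, beside 3.22, 2.73 and 2.00 CPM in BPSIP males. Ear2, a ribonuclease of eosinophils and macrophages with close copies, rose by 1.91 ± 0.52 (adjusted p = 0.00251), from 0.315, 1.16 and 0.468 CPM to 2.3, 3.26 and 1.76 CPM.

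**Figure D3:**
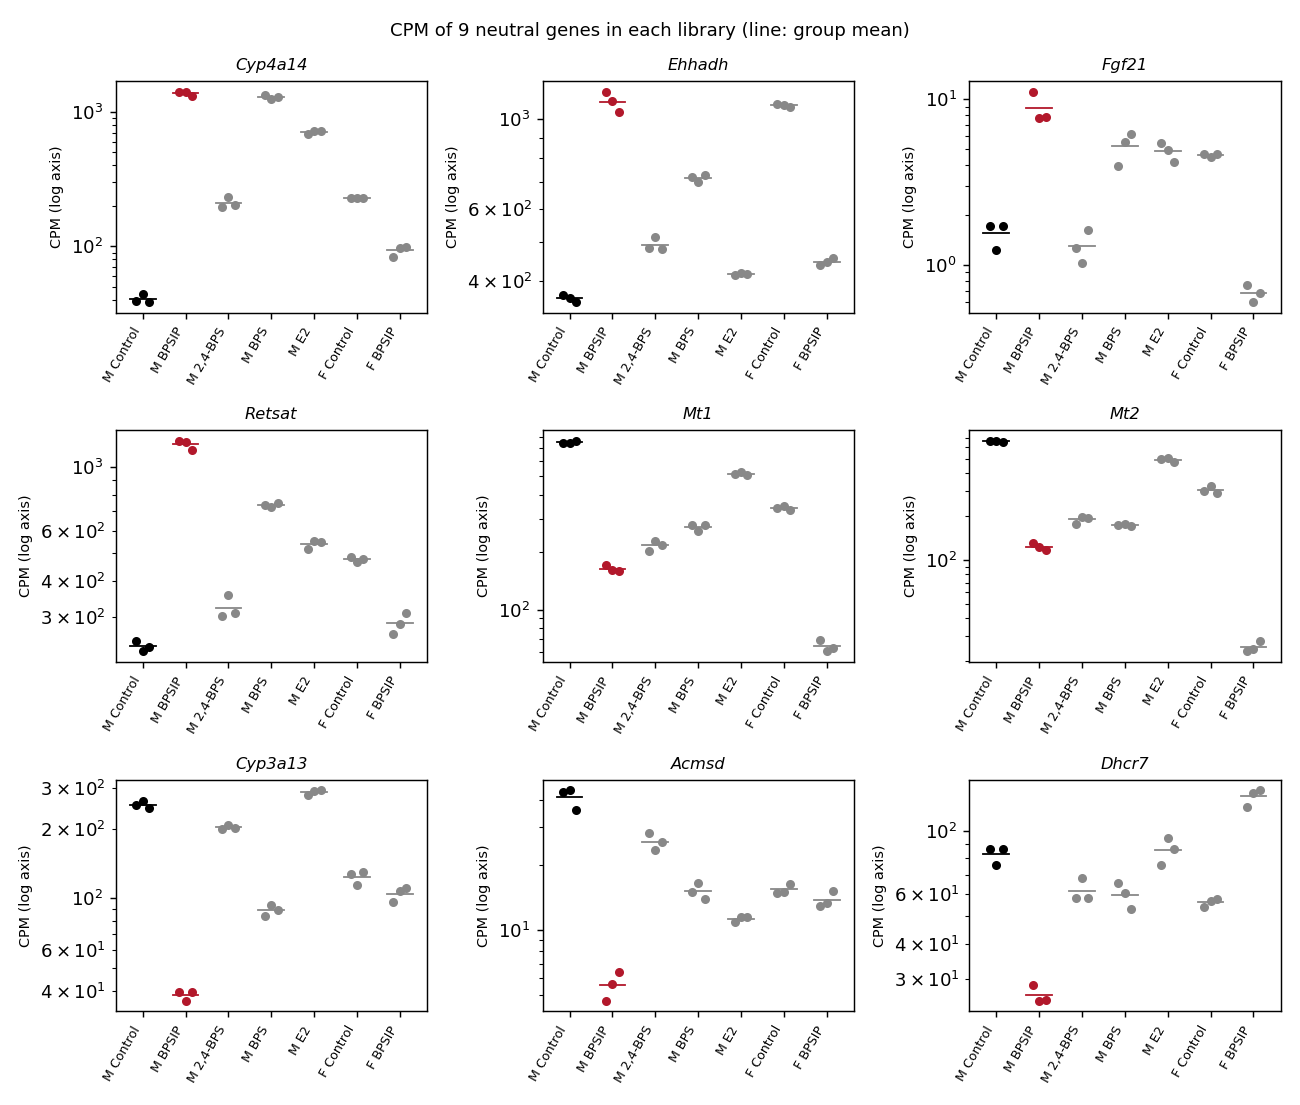
CPM (log axis) of 9 neutral genes in each library of 5 male and 2 female groups, 3 points per group with a line at the group mean; BPSIP males are red and the libraries labelled male control black. Cyp4a14, Ehhadh, Fgf21 and Retsat are highest in BPSIP males among the male groups, and Mt1, Mt2, Cyp3a13, Acmsd and Dhcr7 lowest.

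Metallothionein genes were among the largest falls. The promoters of both are printed because the core of the metal response element, which MTF1 binds, occurs in each. The windows are the 250 bases before the start in RefSeq on GRCm38.p6, 5′ to 3′ on the plus strand, at chr8:94178839-94179088 for Mt1 and chr8:94172368-94172617 for Mt2, with matches to TGCACNC or TGCGCNC on either strand in capitals.

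Mt1: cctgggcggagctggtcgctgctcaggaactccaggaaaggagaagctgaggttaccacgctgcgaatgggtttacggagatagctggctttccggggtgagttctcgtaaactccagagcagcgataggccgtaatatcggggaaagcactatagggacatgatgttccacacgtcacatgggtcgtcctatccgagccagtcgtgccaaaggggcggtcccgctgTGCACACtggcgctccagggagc

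Mt2: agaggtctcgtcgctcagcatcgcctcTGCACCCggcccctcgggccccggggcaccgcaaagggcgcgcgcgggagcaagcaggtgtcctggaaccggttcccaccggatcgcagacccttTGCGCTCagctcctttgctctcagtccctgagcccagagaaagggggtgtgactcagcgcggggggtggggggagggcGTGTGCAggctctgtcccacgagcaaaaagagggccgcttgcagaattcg

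The window of Mt1 held 1 match, which begins 23 bases before the start, and that of Mt2 held 3, which begin 223, 128 and 50 bases before it, the last on the opposite strand. This short core was in 7032 of 32851 windows (21.4%), and it was chosen for the search after the values were seen. Mt1 was at 171, 162 and 159 CPM in BPSIP males and 748, 749 and 767 CPM in the libraries labelled male control, a difference of -2.19 ± 0.05 on the log2 scale, or 4.58-fold lower (adjusted p = 2.76e-48). Mt2 was at 132, 122 and 117 CPM against 665, 662 and 652 CPM, a difference of -2.40 ± 0.05, or 5.29-fold lower (adjusted p = 6.67e-50). Both were lowest in BPSIP males of all male groups: the other means were 217 in 2,4-BPS, 272 in BPS and 514 in E2 CPM for Mt1 and 191 in 2,4-BPS, 174 in BPS and 494 in E2 CPM for Mt2. Against those groups together the differences were -0.92 ± 0.04 and -1.03 ± 0.04 (adjusted p = 2.67e-31 and 2.71e-33). Females showed lower values too, at -2.41 ± 0.07 for Mt1 (from 341 ± 7.15 to 64.1 ± 4.55 CPM) and -3.60 ± 0.07 for Mt2 (from 304 ± 16.8 to 25.1 ± 2.25 CPM). The level in the libraries labelled male control was more than that of both the female controls and every exposed male group. In the mixed comparison the differences were -1.68 and -1.74.

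Other genes of metal handling did not follow the metallothioneins as a group. Of 23 neutral genes of iron and metal handling 12 rose and 7 fell against the libraries labelled male control (median 0.15), and 7 rose and 9 fell against the other exposed males (median -0.03). Beside this, 20.2% of all neutral genes rose and 15.3% fell in the first comparison, and 17.7% and 16.4% in the second. Hamp, which codes for the iron hormone hepcidin, rose by 0.68 ± 0.04 and 0.65 ± 0.03 in the 2 comparisons. Alas1, the rate-limiting enzyme of haem synthesis, rose by 0.56 ± 0.04 and 0.83 ± 0.03. In the mixed comparison the first of these was 0.12 (adjusted p = 0.0216). BPSIP males, at 621, 611 and 643 CPM, were near BPS males at 616, 636 and 603 CPM. The 2,4-BPS males (278, 283 and 271 CPM) and E2 males (247, 264 and 265 CPM) were lower. Slc30a1, a zinc exporter and an MTF1 target, fell by 0.50 against the libraries labelled male control (adjusted p = 1.15e-08) and was at -0.07 ± 0.06 against the other exposed males (adjusted p = 0.396). Mtf1 was at -0.26 ± 0.10 (adjusted p = 0.0399), a call lost without any of 4 of the 6 libraries (-0.27 to -0.18), and at -0.05 ± 0.08 against the other exposed males (adjusted p = 0.719). Slc30a1 and Mtf1 were chosen after their values were seen.

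The other large falls lay in a cytochrome, in tryptophan breakdown and in low genes. Cyp3a13, a drug-metabolising cytochrome, was at 39.5, 36.2 and 39.4 CPM in BPSIP males and 253, 263 and 244 CPM in the libraries labelled male control, 6.57-fold lower (-2.72 ± 0.05, adjusted p = 1.30e-50). The other exposed males were at means of 202 in 2,4-BPS, 89 in BPS and 287 in E2, all above BPSIP, and the difference against them was -2.16 ± 0.05. In females the difference was -0.24. Acmsd, which directs tryptophan breakdown away from NAD synthesis, was at 4.73, 5.64 and 6.41 CPM against 43.6, 44.4 and 35.9 CPM, 7.34-fold lower (-2.88 ± 0.11, adjusted p = 9.83e-33), and -1.54 ± 0.10 against the other exposed males at means of 25.7 in 2,4-BPS, 15.1 in BPS and 11.3 in E2. In females Acmsd was at -0.16 ± 0.11 (adjusted p = 0.279). Psmc3ip, a meiotic recombination factor, was at 0.296, 0.188 and 0.272 against 2.8, 4.78 and 2.91 CPM (-3.77 ± 0.37), but BPS males were as low as BPSIP males, at a mean of 0.203 CPM, while 2,4-BPS and E2 males were at 2.44 and 3.83 CPM. Myom3, a protein of the muscle sarcomere, fell from 2.7, 3.09 and 3.25 to 0.164, 0.408 and 0.475 CPM (-3.09 ± 0.33) and rose in females by 1.89 ± 0.30. H2-Q2, a class Ib histocompatibility gene with close copies, was at -2.68, Lrit2 at -2.49, Cyp1a1, an aryl hydrocarbon receptor target, at -2.34 and Tiam2 at -2.56, all of them called. Cyp1a1 was also low in 2,4-BPS males, at 1.67, 0.932 and 1.55 CPM, beside 0.854, 0.878 and 1.39 CPM in BPSIP males. So was Tiam2, at 0.186, 0.466 and 0.746 CPM beside 0.591, 0 and 0.238 CPM. In the mixed comparison Cyp3a13 was at -1.78, Psmc3ip at -1.81 and Lrit2 at -1.60, and the Tiam2 call was lost, at -0.20 (adjusted p = 0.748).

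Acute phase genes were mostly lower. Of 26 neutral members of that list of 42, 2 rose and 18 fell against the libraries labelled male control (median -0.31), and 2 rose and 20 fell against the other exposed males (median -0.50), beside 16.4% of neutral genes lower in the second comparison. Both metallothioneins belong to the list and are counted in it. A fall against the libraries labelled male control was not limited to BPSIP: 5 rose and 19 fell in BPS males (median -0.40). In 2,4-BPS males 10 rose and 13 fell, and in E2 males 19 rose and 5 fell. Lbp, which binds bacterial endotoxin, was at 133, 140.4 and 135 CPM in BPSIP males and 362, 359 and 343 CPM in the libraries labelled male control, a difference of -1.37 ± 0.05 (adjusted p = 1.02e-35), and it fell by 0.85 against the other exposed males at means of 181 in 2,4-BPS, 201 in BPS and 413 in E2. Saa4, a constitutive serum amyloid protein, was at 314, 322 and 338 against 815, 828 and 785 CPM (-1.31 ± 0.04; -0.75 ± 0.03 against the other exposed males). In females Lbp and Saa4 were at 0.08 ± 0.06 and 0.05 ± 0.05 (adjusted p = 0.298 and 0.51). Steap4, a metalloreductase induced by inflammation, fell (differences of -1.37 and -1.40) in the 2 male comparisons and rose by 0.73 in females. Hpx, the haem carrier haemopexin, fell (differences of -0.68 and -1.08) and rose by 0.79 in females, and Apcs, serum amyloid P, was at -0.07 ± 0.05 against the libraries labelled male control (adjusted p = 0.24), fell by 1.13 against the other exposed males and rose by 0.79 in females; in the mixed comparison it was called higher, at 0.17 (adjusted p = 0.00179). Stat3, the factor that carries the interleukin-6 signal, fell (differences of -0.46 and -0.50). Steap4, Hpx, Apcs and Stat3 were chosen after their values were seen. E2 males were high for several of these genes, with Hpx at a mean of 11877 CPM and Apcs at 1156 CPM, the highest of the 3 means behind that comparison. Saa1, Saa2, Saa3, Orm1, Orm2, Orm3, Lcn2, Hp and 8 more members were not neutral.

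Complement and coagulation genes fell against 1 reference alone: of 32 neutral members 3 rose and 17 fell against the libraries labelled male control (median -0.15; none and 20 in the mixed comparison), and 10 rose and 9 fell against the other exposed males (median 0.01). Among all neutral genes 20.2% rose and 15.3% fell in the first comparison, and 17.7% and 16.4% in the second. All 8 neutral genes of the interferon response fell against the libraries labelled male control (median -0.50), and 4 of 8 against the other exposed males (median -0.15). Ifi27 was at 41.8, 40 and 39.6 CPM in BPSIP males and 123, 132 and 117 CPM in the libraries labelled male control (-1.60 ± 0.06), and Bst2, a tetherin that holds viruses at the cell surface, at 87.3, 86.5 and 82.3 and 177, 175 and 167 CPM (-1.01 ± 0.05). The means of the other exposed males were 48.1 in 2,4-BPS, 52.3 in BPS and 41 in E2 for Ifi27 and 106 in 2,4-BPS, 104 in BPS and 94.5 in E2 for Bst2, near those of BPSIP. Each of the 8 genes also fell in 2,4-BPS and E2 males against the same control libraries. Only 8 of the 52 listed interferon genes were neutral, so this count describes a small remainder of the list. The summed level of the whole macrophage and Kupffer cell marker list (22 genes, 1 of them neutral) was 900 to 977 CPM in BPSIP males, 1406 to 1516 CPM in the libraries labelled male control and 829 to 1088 CPM in the other exposed males; its part in the acute phase, complement and interferon results was not tested. In bulk liver, fewer cells of a type and less RNA per cell cannot be told apart.

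**Figure D4:**
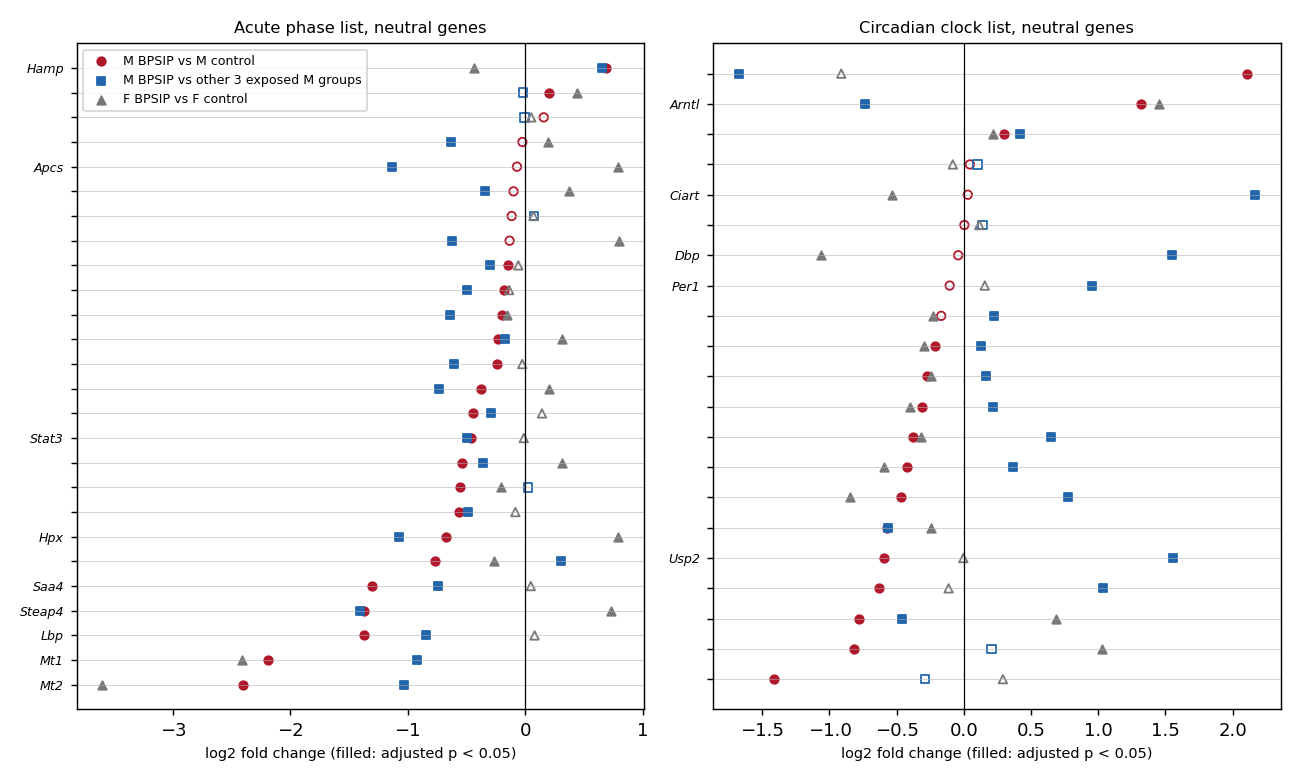
Log2 fold changes (horizontal axes) of the 26 neutral acute phase genes and 21 of the 22 neutral clock genes in BPSIP males against the libraries labelled male control (red), against the other 3 exposed male groups (blue) and in BPSIP females against female controls (grey); filled marks had an adjusted p under 0.05. Names are given for genes described in the text. In the acute phase panel 18 red and 20 blue marks are filled below 0; in the clock panel 12 red marks are filled below 0 and 13 blue marks above 0.

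Clock genes gave opposite pictures with the 2 references. Over all neutral genes 20.2% rose and 15.3% fell against the libraries labelled male control, and 17.7% and 16.4% against the other exposed males. Of 22 neutral members, 3 rose and 13 fell against the libraries labelled male control (median -0.30), and 13 rose and 4 fell against the other exposed males (median 0.21). Dbp, a clock output factor, was at 98.9, 103 and 96.2 CPM in BPSIP males and 100.2, 101 and 107 CPM in the libraries labelled male control, which overlap, with a difference of -0.04 ± 0.06 (adjusted p = 0.622). The other exposed males were at means of 33.8 in 2,4-BPS, 71.6 in BPS and 16.4 in E2 CPM, and BPSIP was above them by 1.55 ± 0.05 (adjusted p = 6.30e-39). Ciart, a repressor within the clock, was at 0.03 ± 0.12 (adjusted p = 0.886) and 2.16 ± 0.10 in the same 2 comparisons, and Per1, of the negative limb, at -0.11 ± 0.09 (adjusted p = 0.385) and 0.95 ± 0.07. In the mixed comparison Ciart and Per1 were both called lower, at -0.34 (adjusted p = 0.029) and -0.37 (adjusted p = 6.67e-04). Usp2, a ubiquitin protease under clock control, fell by 0.59 against the libraries labelled male control and rose by 1.56 ± 0.08 against the other exposed males. Arntl, which codes for BMAL1 of the positive limb, was at 9.33, 8.62 and 7.13 CPM in BPSIP males, above the 2.84, 2.96 and 4.28 CPM of the libraries labelled male control (1.32 ± 0.16, adjusted p = 9.01e-11; 0.84 in the mixed comparison), and fell by 0.74 against the other exposed males at means of 17.4 in 2,4-BPS, 6.99 in BPS and 22.7 in E2 CPM. Thus BPSIP males lay between the libraries labelled male control and the 2,4-BPS and E2 males for Arntl. Dbp, Ciart, Per1 and Usp2 were chosen after their values were seen, and a difference in the hour of collection between groups was not tested.

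Immediate early genes respond to growth factors and stress within minutes. Of 14 neutral members 8 rose and 2 fell against the libraries labelled male control (median 0.44), and 9 rose and 1 fell against the other exposed males (median 0.50), beside 20.2% and 17.7% of all neutral genes higher in the 2 comparisons. In females 2 rose and 6 fell. Egr1, a zinc finger factor, was at 41.4, 39.6 and 39.9 CPM in BPSIP males and 11.3, 11.3 and 13.3 CPM in the libraries labelled male control (1.75 ± 0.12, adjusted p = 3.64e-19), and it was above the other exposed males, at means of 11.3 in 2,4-BPS, 3.04 in BPS and 14.7 in E2, by 2.35 ± 0.09. Zfp36, which destabilises inflammatory mRNAs, rose by 0.65 ± 0.06 (0.33 in the mixed comparison) and 0.78 ± 0.05. Nr4a1, an orphan nuclear receptor, was at 5.19, 5.08 and 5.74 against 1.54, 1.1 and 1 CPM (2.14 ± 0.24), but E2 males were higher still, at a mean of 10.8 CPM. Myc went the other way, at 6.37, 5.33 and 5.87 CPM against 20, 17.9 and 20.3 CPM (-1.72 ± 0.11, adjusted p = 1.07e-20), and fell by 1.42 against the other exposed males. Such genes also answer to handling at collection, which is not given in the sources used here and whose part was not tested.

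Cholesterol genes were lower in BPSIP males, but few of them are neutral. Of 25 listed genes 8 were neutral, and of these 5 fell and none rose against the libraries labelled male control (median -0.36), and 7 fell against the other exposed males (median -0.35). Over all neutral genes 15.3% and 16.4% were lower in these 2 comparisons. In females 5 of the 8 rose and none fell (median 0.87). Dhcr7, the last enzyme of cholesterol synthesis, was at 28.5, 25.2 and 25.5 CPM in BPSIP males and 85.9, 75.5 and 86 CPM in the libraries labelled male control, 3.1-fold lower (-1.63 ± 0.09, adjusted p = 1.37e-12), and -1.35 ± 0.08 against the other exposed males, at means of 61.5 in 2,4-BPS, 59.5 in BPS and 85.4 in E2. In females it rose from 55.9 ± 1.92 to 132 ± 9.43 CPM. Ebp, a sterol isomerase, fell (differences of -0.57 and -0.25), Stard4, a carrier of cholesterol, fell too (-0.39 and -0.38), and Tm7sf2, a sterol reductase, was at -0.53 and -0.13, the second call lost without the first or the third BPSIP library (adjusted p = 0.05003 and 0.121). The BPSIP libraries themselves take part in the rule. In the mixed comparison 4 genes of the list were called lower (Stard4 at -0.16, Tm7sf2 at -0.25). With a ratio of 0.77 to 1.3 only 1 gene was called lower. When the ratio was taken over the other 3 exposures alone, 21 genes of the list were called lower and none higher against the libraries labelled male control. These 21 are more than the 8 members of the main rule, so they include genes outside it. The number of members under these 2 other ratios is not given here, so the counts 1 and 21 have no share beside them.

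Fatty acid and triglyceride synthesis had no common direction. The shares over all neutral genes were 20.2% higher and 15.3% lower against the libraries labelled male control, and 17.7% and 16.4% against the other exposed males. Of 15 neutral members 6 rose and 5 fell against the libraries labelled male control, and 9 rose and 3 fell against the other exposed males (medians 0.08 and 0.22). The elongases Elovl5 and Elovl2, which lengthen polyunsaturated fatty acids, rose by 1.04 ± 0.04 and 0.72 ± 0.04, and by 0.47 ± 0.03 and 0.58 ± 0.03 against the other exposed males. Me1, the malic enzyme that supplies NADPH, rose by 0.71 ± 0.05 and 0.40 ± 0.04. Acss2, which makes acetyl-CoA from acetate and is a sterol-regulated gene, was at 56.9, 56.9 and 55.4 CPM against 150.0, 152 and 166 CPM, a difference of -1.46 ± 0.06 (adjusted p = 1.17e-32), and fell by 0.42 against the other exposed males. In lipoprotein metabolism, where 9 of 22 neutral genes rose and 3 fell (5 and 3 in the mixed comparison, 10 and 4 against the other exposed males), Apoa4 rose by 1.18 ± 0.04 and 0.19 ± 0.03 and Scarb1, the receptor for high-density lipoprotein, fell (differences of -0.995 and -0.81, the first at -0.58 in the mixed comparison).

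Genes of the urea cycle and amino acid breakdown were mostly lower with both references: of 35 neutral members 7 rose and 24 fell against the libraries labelled male control (median -0.19), and 4 rose and 24 fell against the other exposed males (median -0.14). Over all neutral genes 15.3% and 16.4% were lower in these comparisons. Ass1 and Asl, successive enzymes of the urea cycle, fell (differences of -0.67 and -0.71), and were at -0.34 and -0.27 against the other exposed males. Prodh, the first enzyme of proline breakdown, fell (differences of -0.76 and -0.22). The other exposures had 17 to 20 members lower than the same control libraries.

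In glucose metabolism and insulin signalling 3 of 29 neutral genes rose and 16 fell against the libraries labelled male control (median -0.22; 5 and 11 in the mixed comparison), and 8 rose and 14 fell against the other exposed males (median -0.10). Among all neutral genes 20.2% rose and 15.3% fell in the first comparison, and 17.7% and 16.4% against the other exposed males. Igfbp1, an insulin-repressed binding protein of insulin-like growth factors, was at 52.5, 53.1 and 51.6 CPM in BPSIP males and 115, 106 and 98.9 CPM in the libraries labelled male control (-1.01 ± 0.06, adjusted p = 2.55e-23). It fell by 0.55 against the other exposed males. G6pc, the last enzyme of gluconeogenesis, was at 242, 256 and 258 against 314, 294 and 279.9 CPM (-0.22 ± 0.04, adjusted p = 3.59e-05), but in the mixed comparison it stood at 0.01 (adjusted p = 0.889). Against the other exposed males, with E2 at a mean of 537 CPM, it was at -0.47 ± 0.04.

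**Figure D5:**
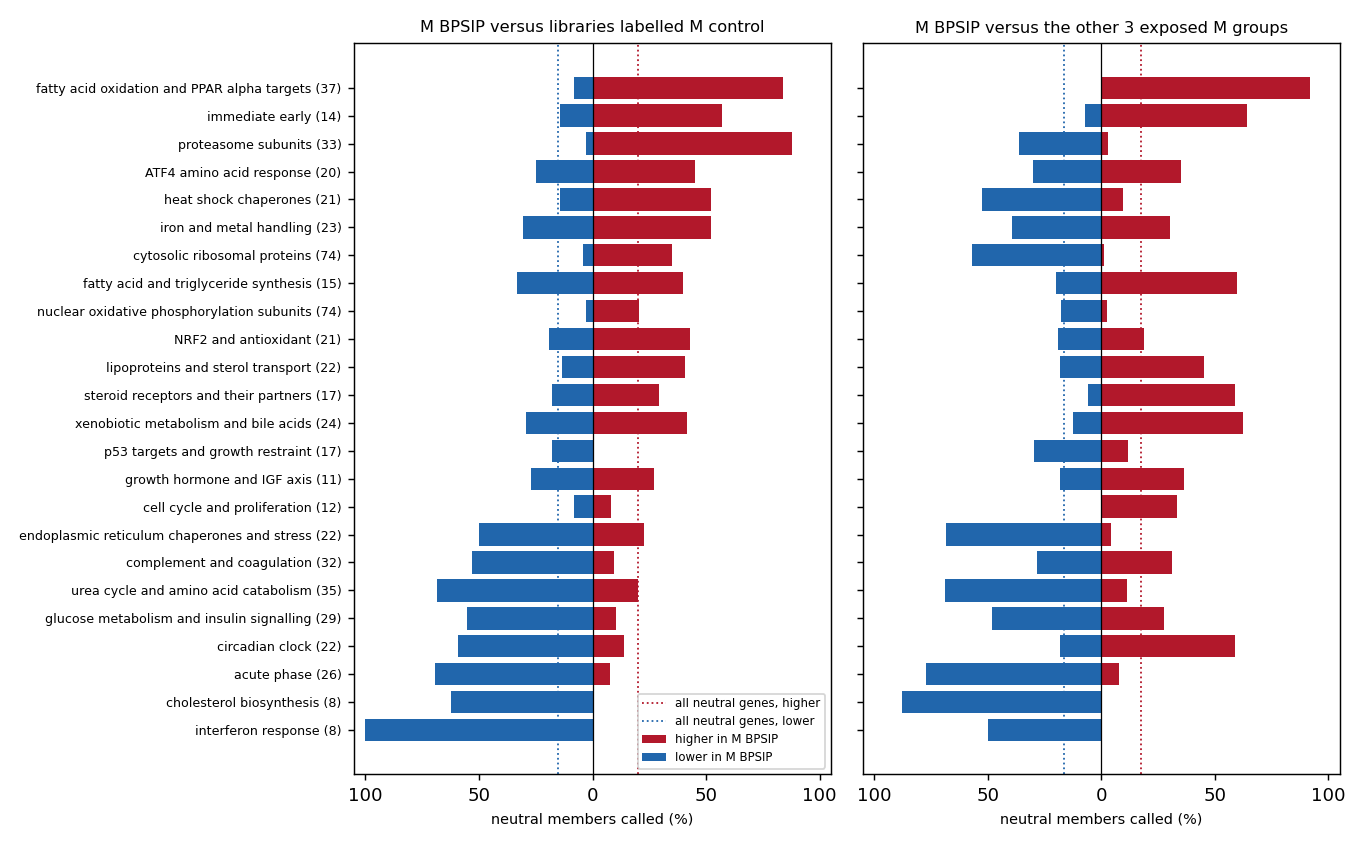
Share of neutral members called higher (red, to the right) or lower (blue, to the left) at an adjusted p under 0.05 in 24 pathway lists with 8 or more neutral members (their number in parentheses), against the libraries labelled male control and against the other 3 exposed male groups; dotted lines give the shares over all neutral genes. Fatty acid oxidation lies far to the right and acute phase and cholesterol to the left in both panels, while the proteasome, heat shock, ribosomal and clock lists differ between panels.

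Protein turnover lists depended on the reference. Over all neutral genes 20.2% rose and 15.3% fell against the libraries labelled male control. Against the other exposed males the shares were 17.7% and 16.4%. Of 33 neutral proteasome subunits and partners, all of those listed, 29 rose and 1 fell against the libraries labelled male control (median 0.26), but 1 rose and 12 fell against the other exposed males (median -0.07), and each other exposure also had 24 to 32 members higher than the same control libraries. Psmd1, a base subunit, was at 146, 147 and 149.8 CPM in BPSIP males and 107, 105 and 98.1 CPM in the libraries labelled male control (0.52 ± 0.05), with the other exposed males at 143 in 2,4-BPS, 153 in BPS and 138 in E2. In the mixed comparison 19 rose and 1 fell. Of 21 heat shock chaperones 11 rose and 3 fell against the libraries labelled male control and 2 rose and 11 fell against the other exposed males; in the mixed comparison 5 rose and 4 fell. Dnajb1 rose in both, by 1.12 ± 0.07 (0.73 in the mixed comparison) and 0.37 ± 0.06. BPSIP males, at 56.3, 53.6 and 52.7 CPM, were near 2,4-BPS males (51.4, 52.6 and 55.6) and BPS males (59.9, 59.9 and 54.0). Only E2 males were lower, at 25.3, 24.5 and 23.8 CPM. Of 22 chaperones and stress genes of the endoplasmic reticulum 5 rose and 11 fell (2 and 14 in the mixed comparison), and 1 rose and 15 fell against the other exposed males (medians -0.13 and -0.33), whereas 18 rose and 1 fell in females. Pdia6, a disulfide isomerase, fell (differences of -0.87 and -0.55). Dnajb9, a cochaperone induced under XBP1, rose by 0.78 ± 0.05 against the libraries labelled male control (0.40 in the mixed comparison) and was at 0.03 ± 0.04 against the other exposed males (adjusted p = 0.683).

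Of 74 neutral cytosolic ribosomal protein genes 26 rose and 3 fell against the libraries labelled male control (median 0.08), and 1 rose and 42 fell against the other exposed males (median -0.11). When the libraries were scaled by the neutral genes alone, 17 rose and 6 fell against the libraries labelled male control, and in the mixed comparison 44 rose and 1 fell. Leaving out single libraries gave 14 to 30 higher, with 14 without the first BPSIP library and 16 without the first control library. Of 74 neutral nuclear subunits of oxidative phosphorylation 15 rose and 2 fell (8 and 4 in the mixed comparison), and 2 rose and 13 fell against the other exposed males. Beside this, 20.2% of all neutral genes were higher in the first comparison and 16.4% lower in the second. Rps2 rose by 2.07 ± 0.05 against the libraries labelled male control, but it has many processed copies and its count is uncertain.

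Genes of xenobiotic metabolism and bile acids moved in both directions: 10 of 24 rose and 7 fell against the libraries labelled male control (8 and 10 in the mixed comparison), and 15 rose and 3 fell against the other exposed males (median 0.29). Abcb4, which exports phospholipid into bile, was at 589, 631 and 627 CPM in BPSIP males and 314, 302 and 301 CPM in the libraries labelled male control (1.02 ± 0.04, adjusted p = 3.30e-30), above the other exposed males by 0.82 ± 0.03. Cyp2e1, an abundant cytochrome that oxidises ethanol, rose by 0.49 ± 0.03 and 0.56 ± 0.03, and Cyp3a25 by 0.62 ± 0.04 and 0.37 ± 0.03; in the mixed comparison they were at 0.23 and 0.37. Among 17 steroid receptors and partners 5 rose and 3 fell (2 and 5 in the mixed comparison), and 10 rose and 1 fell against the other exposed males. For both lists the shares over all neutral genes were 20.2% higher and 15.3% lower against the libraries labelled male control. They were 17.7% and 16.4% against the other exposed males. Fkbp5, a glucocorticoid-induced chaperone partner, fell by 0.67 against the libraries labelled male control and rose by 0.70 ± 0.04 against the other exposed males. Hnf4a, a master regulator of hepatocyte genes, was at 0.25 ± 0.04 (adjusted p = 3.69e-07), but at -0.03 in the mixed comparison (adjusted p = 0.573).

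Some genes changed against the libraries labelled male control with no call against the other exposed males. The largest rises of this kind were Tuba8 (2.64 ± 0.50), a tubulin, Rsph3b (2.33 ± 0.33), a radial spoke protein, and H2bc8 (1.92 ± 0.27), a histone, with adjusted p of 0.784, 0.882 and 0.434 against the other exposed males. The largest falls were Slc15a2 (-3.04 ± 0.84), a peptide transporter, Adrb3 (-1.90 ± 0.23), the β3-adrenergic receptor, and E2f1 (-1.54 ± 0.33), a cell cycle factor. Slc15a2 was at 0.69, 0.0313 and 0.0679 CPM in BPSIP males, where the first library stands apart, against 2.03, 1.59 and 2.94 CPM, and in the mixed comparison it was at -1.27; without that library it was called against the other exposed males too (-4.13, adjusted p = 5.43e-05). DESeq2 called E2f1 against the other exposed males as well.

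Cell type markers were read from their lists. The shares over all neutral genes were 20.2% higher and 15.3% lower against the libraries labelled male control. They were 17.7% and 16.4% against the other exposed males. Of 17 sinusoidal endothelial markers, all neutral, 8 rose and 1 fell against the libraries labelled male control and 13 rose and none fell against the other exposed males (medians 0.13 and 0.32), with a summed level of 740 to 757 CPM in BPSIP males, 682 to 698 CPM in the libraries labelled male control and 561 to 637 CPM in the other exposed males. Without the second control library 4 rose and 2 fell. Stab2 and Clec4g, scavenger receptor and lectin of these cells, were at 0.25 ± 0.04 and 0.33 ± 0.05 against the other exposed males. Of 13 neutral stellate cell and matrix genes 7 rose and 2 fell, and 3 rose and 2 fell against the other exposed males. Hepatocyte markers summed to 111945 to 115237 CPM in BPSIP males, 143857 to 150436 CPM in the libraries labelled male control and 91440 to 121998 CPM in the other exposed males, so the liver label held. The adipose, muscle, pancreas and mesothelium list (16 genes, 5 of them neutral) summed to 1304 to 1325 CPM in BPSIP males. It summed to 2535 to 2679 CPM in the libraries labelled male control and 1869 to 2750 CPM in the other exposed males. In the same order, T and NK cell markers (18 genes, 1 of them neutral) summed to 10 to 14, 21 to 22 and 9.8 to 12.2 CPM. Neutrophil markers (14 genes, 3 of them neutral) summed to 19 to 24, 23 to 34 and 26.3 to 65.6 CPM. Most genes in these sums are not neutral, and the part of the female RNA in the libraries labelled male control was not tested. The part of these differences in the results above was not tested.

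The difference between sexes in the BPSIP effect was tested for the 3 neutral genes of a panel of 12 chosen with the female results known. The female difference minus the male difference was -2.42 ± 0.10 (SE) for Igfbp1, -2.21 ± 0.08 for G6pc and -2.13 ± 0.08 for Angptl4, with adjusted p of 3.48e-31, 8.76e-35 and 8.24e-33 (edgeR, 14131 genes). Over all genes this difference was called higher in females for 19% and lower for 17.4%, and over the neutral genes for 15.9% and 21.1%. Igfbp1 fell in females from 77.5 ± 3.29 to 7.11 ± 0.696 CPM, G6pc from 368 ± 10.1 to 67.7 ± 5.96 CPM and Angptl4 from 120.5 ± 4.4 to 22.9 ± 1.62 CPM. The male side of each difference uses the libraries labelled male control.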

How the data were processed

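Liver mRNA of 30 libraries was sequenced, 3 per sex and group, from 10-week-old ICR offspring. The authors deposited raw read counts per gene; the submitters' processing notes name HISAT2, HTSeq, DESeq2 and R 3.2.0, while the build, the annotation and whether strand was used in counting are stated in none of the sources used here. The build of the promoter windows (RefSeq, GRCm38.p6) is that of the table of sequences. A second deposited table, of normalised values, was not used.

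The 15 male libraries were fitted together with edgeR 4.0.16 in R 4.3.3 (filterByExpr by group, TMM, robust quasi-likelihood test), and p-values were adjusted by Benjamini-Hochberg over all 13474 genes tested; calls are at an adjusted p under 0.05. The 15 female libraries, and all 30 for the difference between sexes, were fitted in the same way. CPM are scaled by TMM over 30 libraries. By the labels, livers came from different dams. The p-values measure the spread between libraries, and in no group is this shown to be the spread between animals. That spread was small for an outbred stock, with a common coefficient of variation beyond sampling noise of 0.087 in the male fit. The libraries labelled male control also hold RNA of both sexes. Replicate libraries differed by more than sampling noise (chi-square per degree of freedom of 7.48 to 15.2), so none was merged.

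The members and the 35 gene lists were chosen with earlier results of these data known. Named genes are the 10 largest changes each way that were called in both comparisons without overlap of the 3 and 3 values, the 3 largest each way called against the libraries labelled male control alone, up to 4 called members per list by smallest p and up to 3 members per marker list by level, all without predicted genes, clones, pseudogenes and mitochondrial genes; others are said in the text to be chosen after their values were seen. Only some of them are printed, and a few genes are not reported here.

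Alternatives were other scalings, DESeq2 1.42.0, no filter on low counts, other forms of the neutral rule, a fit of 6 libraries, a replicate block, leaving out each library, and a mixed comparison, in which each BPSIP library was mixed with a female control library at the female share of 42.0% before the test against the libraries labelled male control.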

Additional observations from a re-analysis of the deposited data

Results flagged for a closer look

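For 25 named neutral genes the BPSIP effect differed between sexes by a test of the difference itself (edgeR, all 30 libraries, adjusted p under 0.05 over 14131 genes). The values are the female difference minus the male difference on the log2 scale, the male side uses the libraries labelled male control with their share of female RNA, and the genes were partly chosen for large male changes, so that many of them differ is no count of its own.

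In fatty acid oxidation the difference was -6.37 for Cyp4a14, -2.71 for Cyp4a10, -3.19 for Cyp4a31, -5.27 for Fgf21, -2.88 for Ehhadh and -2.57 for Acaa1b, each with a higher value in males. All 37 neutral members of that list were called lower in females than in males by this difference, beside 21.1% of all neutral genes. In the panel it was -2.42 for Igfbp1, -2.21 for G6pc and -2.13 for Angptl4, which fell further in females.

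Among the other large rises in males it was -3.07 for Retsat, -2.16 for Slc37a2, -1.43 for Cwc22, -3.51 for Npnt, -1.68 for Nr4a1 and -1.61 for Ear2. The Ear2 difference was lost without any 1 of 7 of the 12 libraries.

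Among the large falls in males it was 3.65 for Psmc3ip, 4.99 for Myom3, 2.73 for Acmsd, 2.48 for Cyp3a13, 3.77 for H2-Q2, 1.94 for Tiam2, 2.09 for Lrit2 and 3.10 for Cyp1a1. The metallothioneins, which fell in both sexes, differed by -1.19 for Mt2 and -0.21 for Mt1. The Mt1 difference (adjusted p = 0.0451) was lost with DESeq2's size factors in edgeR (-0.20, adjusted p = 0.0528), with DESeq2 (adjusted p = 0.0629), with the replicate block (-0.21, adjusted p = 0.0521) and without each of 11 of the 12 libraries. The Tiam2 difference was lost without the second BPSIP male library (1.35, adjusted p = 0.0538).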

How the results depend on the processing

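The counts of neutral genes called, 2016 higher and 1521 lower than in the libraries labelled male control and 1767 and 1633 against the other exposed males, stayed within 1.5 times under other scalings, DESeq2, no filter on low counts, the other forms of the neutral rule, the fit of 6 libraries and the mixed comparison (1391 higher and 1506 lower than in the libraries labelled male control). Asking for at least 2-fold left 93 and 120, and 37 and 58. When the ratio also had to hold in the control libraries, 1785 were higher and 1311 lower than in the libraries labelled male control. Under that rule 19 fatty acid oxidation genes rose and 2 fell, 1 acute phase gene rose and 11 fell, and 2 clock genes rose and 7 fell. This rule leaves out members, by a number not given here. Of 2310 list counts under an alternative, the 2-fold setting included, 267 changed by more than 1.5 times. Asking for more than a shift of 0.27 (a setting chosen after seeing the data) left 1310 higher. With a replicate block the counts were 2002 and 1522, and 1775 and 1627; same-numbered libraries did not deviate together (correlations of -0.01, 0.00437 and -0.00983), so the numbers do not pair them, and the block left the differences between sexes at -2.42 for Igfbp1, -2.21 for G6pc and -2.13 for Angptl4, but ended the Mt1 difference between sexes. Leaving out single libraries gave 1717 to 1826 higher and 1300 to 1400 lower, 1375 to 1545 and 1303 to 1425 against the other exposed males, and -2.49 to -2.33 for Igfbp1, -2.24 to -2.13 for G6pc and -2.17 to -2.07 for Angptl4. In the mixed comparison Hnf4a (-0.033) and G6pc (0.011) changed sign and lost their call. The female control libraries mixed in held Hnf4a at 632, 590 and 606 CPM, below the BPSIP males at 1019, 1003 and 986 CPM. They held G6pc at 368, 379 and 359 CPM, above the BPSIP males at 242, 256 and 258 CPM. Mixing thus lowers the first gene and raises the second by design. Whether the mixture made the unmixed differences was not tested. Of 5228 values of named genes under an alternative, 5119 stayed called or uncalled as before, 79 lost and 28 gained a call. The other 2 were called values that changed sign. A change of sign was counted only for values called in the main fit, so values without a call there may also have changed sign. The mixed comparison rests on female control livers, which are no exact model of the female RNA in the libraries labelled male control. It also makes true differences between males smaller by design. With 3 libraries a group, differences of genes near 1 CPM were imprecise.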

Other observations

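Further lists are given by their counts. The shares over all neutral genes were 20.2% higher and 15.3% lower against the libraries labelled male control, and 17.7% and 16.4% against the other exposed males. Of 21 neutral genes of the NRF2 and antioxidant list 9 rose and 4 fell against the libraries labelled male control (median 0.06; 6 and 5 in the mixed comparison), and 4 rose and 4 fell against the other exposed males (median 0.01). Of 11 neutral genes of the growth hormone and IGF axis 3 rose and 3 fell (1 and 4 in the mixed comparison, 4 and 2 against the other exposed males). Of 17 neutral p53 targets none rose and 3 fell (1 and 1 in the mixed comparison), and 2 rose and 5 fell against the other exposed males. The 3 p53 falls were near the share of all neutral genes lower against the libraries labelled male control, 15.3%. Of 12 neutral cell cycle genes 1 rose and 1 fell, and 4 rose and none fell against the other exposed males, at a summed level of the whole list of 193 to 204 CPM in BPSIP males, 286 to 300 CPM in the libraries labelled male control and 187 to 212 CPM in the other exposed males. Of 4 neutral antigen presentation genes 3 fell against the libraries labelled male control and none was called against the other exposed males. B2m, the light chain of class I molecules, was at 2089 to 2117 CPM in BPSIP males and 2599.9 to 2627 CPM in the libraries labelled male control.

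Of 4 neutral red blood cell genes 2 rose in each comparison. The Hbb-bs call against the other exposed males was lost without the first BPSIP library (0.12, adjusted p = 0.201) or the second (0.17, adjusted p = 0.131). It was also lost when the libraries were scaled by the neutral genes alone (0.18, adjusted p = 0.0551). Of 5 neutral bile duct genes none was called against the libraries labelled male control and 1 rose against the other exposed males.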
